A study of Mus musculus with 6 samples.

Results

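Cholesterol handling was followed in liver RNA-Seq through 31 genes: 19 of sterol synthesis, 4 of the control of SREBP-2 (sterol regulatory element-binding protein 2), 2 of sterol transfer and receptor turnover, 3 of cholesterol esterification and 3 of efflux and HDL uptake. They were taken by name, by a rule that uses no measured value, although earlier results of these data were known when they were chosen. All 31 had a row in the deposited table of 54532 genes, and all 31 held enough counts to be among the 15449 genes tested. Whole livers of 3 g*Spns1*-cKO mice were compared with livers of 3 control mice, 1 library per mouse. SPNS1 is a lysosomal membrane protein that carries lysophospholipids out of the lysosome, and the series asks what its loss does to lipid metabolism. The g*Spns1*-cKO mice were Spns1 fl/fl mice with loxP sites around exon 3 and a tamoxifen-dependent Cre recombinase (Rosa26Cre-ERT2), so that tamoxifen, injected in early postnatal life, deleted *Spns1* in the whole body and not only in hepatocytes. The labels call the controls WT, whereas the methods describe control mice for this line as Spns1 fl/fl without Cre. Whether the control mice received tamoxifen, and the age and sex of the animals sequenced, are not given in the sources used here.

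Liver cells make cholesterol from acetyl-CoA through mevalonate, squalene and lanosterol, and take it up from lipoproteins. When sterols in the endoplasmic reticulum run low, SCAP escorts SREBP-2 to the Golgi apparatus, where its active part is released and switches on the synthesis genes, and when sterols are plentiful the INSIG proteins hold the complex back. Sterol excess is met by esterification, by efflux through ABC transporters under the control of the nuclear receptors LXR, and by turnover of lipoprotein receptors.

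The promoters of the synthesis genes are shown first because they shared a sequence feature that the choice of genes did not use. RefSeq (GRCm38.p6) held the 250 bases before the transcription start for 24 of the 31 genes, 16 of them synthesis genes. On either strand, 2 motifs were searched: TCACNCCAC, the core of a sterol response element, and CCAAT, the box bound by NF-Y, which reads ATTGG on the other strand. A CCAAT box was present in 15 of the 16 synthesis genes (93.8%), in 6 of the 8 other genes (75%) and in 4428 of 11004 tested genes with a promoter in the same table (40.2%). Among the 27025 genes of the whole promoter table, tested or not, the share was 37.5%. Some genes had more than 1 window (30 windows for the 24 genes), and a gene counted if any of its windows matched. Counted by window, the box was in 15 of 19 for synthesis genes (78.9%) and 6 of 11 for the other genes (54.5%). For tested genes the share by window was 35.1%. The TCACNCCAC core was found in 1 of the 24 genes, *Hmgcs1*, starting 137 bases before the transcription start, and in 1.33% of the tested genes. Below, 5 windows are printed 5′ to 3′ in the direction of transcription, with every match of either motif in capitals. The window of *Hmgcs1* (chr13:119690101-119690350 on the plus strand) held both motifs, and those of *Mvk* (chr5:114444019-114444268 on the plus strand) and *Ebp* (chrX:8193513-8193762 on the minus strand), synthesis genes with lower levels in g*Spns1*-cKO livers, held 5 and 2 CCAAT boxes. *Mylip* (chr13:45389492-45389741 on the plus strand) and *Abca1* (chr4:53159896-53160145 on the minus strand) stand for genes outside synthesis, with 3 and 0 matches.
*Hmgcs1*: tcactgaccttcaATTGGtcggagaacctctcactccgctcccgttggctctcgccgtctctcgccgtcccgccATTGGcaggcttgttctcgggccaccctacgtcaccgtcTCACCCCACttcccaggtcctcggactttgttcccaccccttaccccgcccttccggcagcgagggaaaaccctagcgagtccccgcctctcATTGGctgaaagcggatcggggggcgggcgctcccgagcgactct
*Mvk*: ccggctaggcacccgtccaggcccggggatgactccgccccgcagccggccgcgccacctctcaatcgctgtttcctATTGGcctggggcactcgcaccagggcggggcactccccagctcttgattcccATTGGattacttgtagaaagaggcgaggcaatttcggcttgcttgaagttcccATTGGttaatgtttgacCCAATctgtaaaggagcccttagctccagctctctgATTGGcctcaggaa
*Ebp*: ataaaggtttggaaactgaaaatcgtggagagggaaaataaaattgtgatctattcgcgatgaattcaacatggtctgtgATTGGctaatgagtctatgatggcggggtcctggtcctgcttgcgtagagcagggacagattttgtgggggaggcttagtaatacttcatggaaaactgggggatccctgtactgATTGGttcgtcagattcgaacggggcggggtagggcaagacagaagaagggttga
*Mylip*: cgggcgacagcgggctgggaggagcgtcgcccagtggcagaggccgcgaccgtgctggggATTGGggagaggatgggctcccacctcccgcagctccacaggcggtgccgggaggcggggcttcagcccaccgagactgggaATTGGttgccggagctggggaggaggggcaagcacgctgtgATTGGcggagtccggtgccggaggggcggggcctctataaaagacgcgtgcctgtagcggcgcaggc
*Abca1*: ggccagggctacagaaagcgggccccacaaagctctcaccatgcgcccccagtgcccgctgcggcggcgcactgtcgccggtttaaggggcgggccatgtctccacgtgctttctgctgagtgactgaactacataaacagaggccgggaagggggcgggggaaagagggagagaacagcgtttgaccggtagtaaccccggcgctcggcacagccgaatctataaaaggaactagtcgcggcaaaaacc
These shares carry no test. A match says only that these letters are in the window, and no binding was measured in this series.

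The libraries held between 30350002 and 35295611 counts. Levels are given in CPM, that is, counts divided by library sizes that TMM (trimmed mean of M values) had brought to a common scale. The TMM factors were 0.834 to 0.873 in control and 1.16 to 1.18 in g*Spns1*-cKO livers, so that small differences depend on the scaling. The first principal component of the tested genes held 78.2% of the variance and separated the groups, and the second held 8.27% and ran mainly between g*Spns1*-cKO replicate 1 and g*Spns1*-cKO replicate 2. The targeted gene *Spns1* (ENSMUSG00000030741, chr7:126370060-126377450, minus strand) had 35.9, 50.7 and 34.6 CPM in control replicates 1 to 3 and 17.8, 30.6 and 17.8 CPM in g*Spns1*-cKO replicates 1 to 3. Its level was lower in every g*Spns1*-cKO liver than in every control liver, and its log2 fold change was -0.87 ± 0.25 (± is the standard error here and after every log2 fold change; adjusted p = 0.0300, edgeR quasi-likelihood test with Benjamini-Hochberg adjustment over all genes tested). Reads of the exons left in place are part of this count. The call was lost without control replicate 2 (edgeR adjusted p = 0.0785), g*Spns1*-cKO replicate 1 (0.0910) or g*Spns1*-cKO replicate 3 (0.0830).

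Of the 31 genes, 4 passed as higher and 11 as lower in g*Spns1*-cKO livers at an edgeR adjusted p under 0.05, and 16 did not pass. Among all genes tested 41.8% passed, 21.3% as higher and 20.5% as lower, against 12.9% and 35.5% of the 31 genes. The median log2 fold change of the 31 was -0.39, and that of all genes tested was 0.014. The 19 synthesis genes gave 1 higher and 8 lower (42.1%) with a median of -0.59, and the 12 other genes gave 3 higher and 3 lower with a median of 0.064. The groups did not overlap for 5 genes that were above control and 12 that were below it in all 3 g*Spns1*-cKO livers, where 54.1% of all genes tested showed no overlap. Of the 15449 genes tested, 4194 were above and 4158 below control in this way. For a gene without overlap the two-sided exact permutation test gives p = 0.1, and groups of 3 mice cannot reach a smaller p. These directions are relative to TMM. Scaling by library size only called 7289 of all genes higher and 970 lower, in place of 3286 and 3166, and moved the median of all genes to 0.46 and that of the 31 to 0.045. The distance between the 2 medians was -0.40 with TMM and -0.41 with library size only, but 8 of the 11 lower genes then did not pass, and *Tm7sf2*, *Ebp* and *Lcat* remained. In whole liver, fewer cells of a type and less RNA per cell cannot be told apart.

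**Figure D1:**
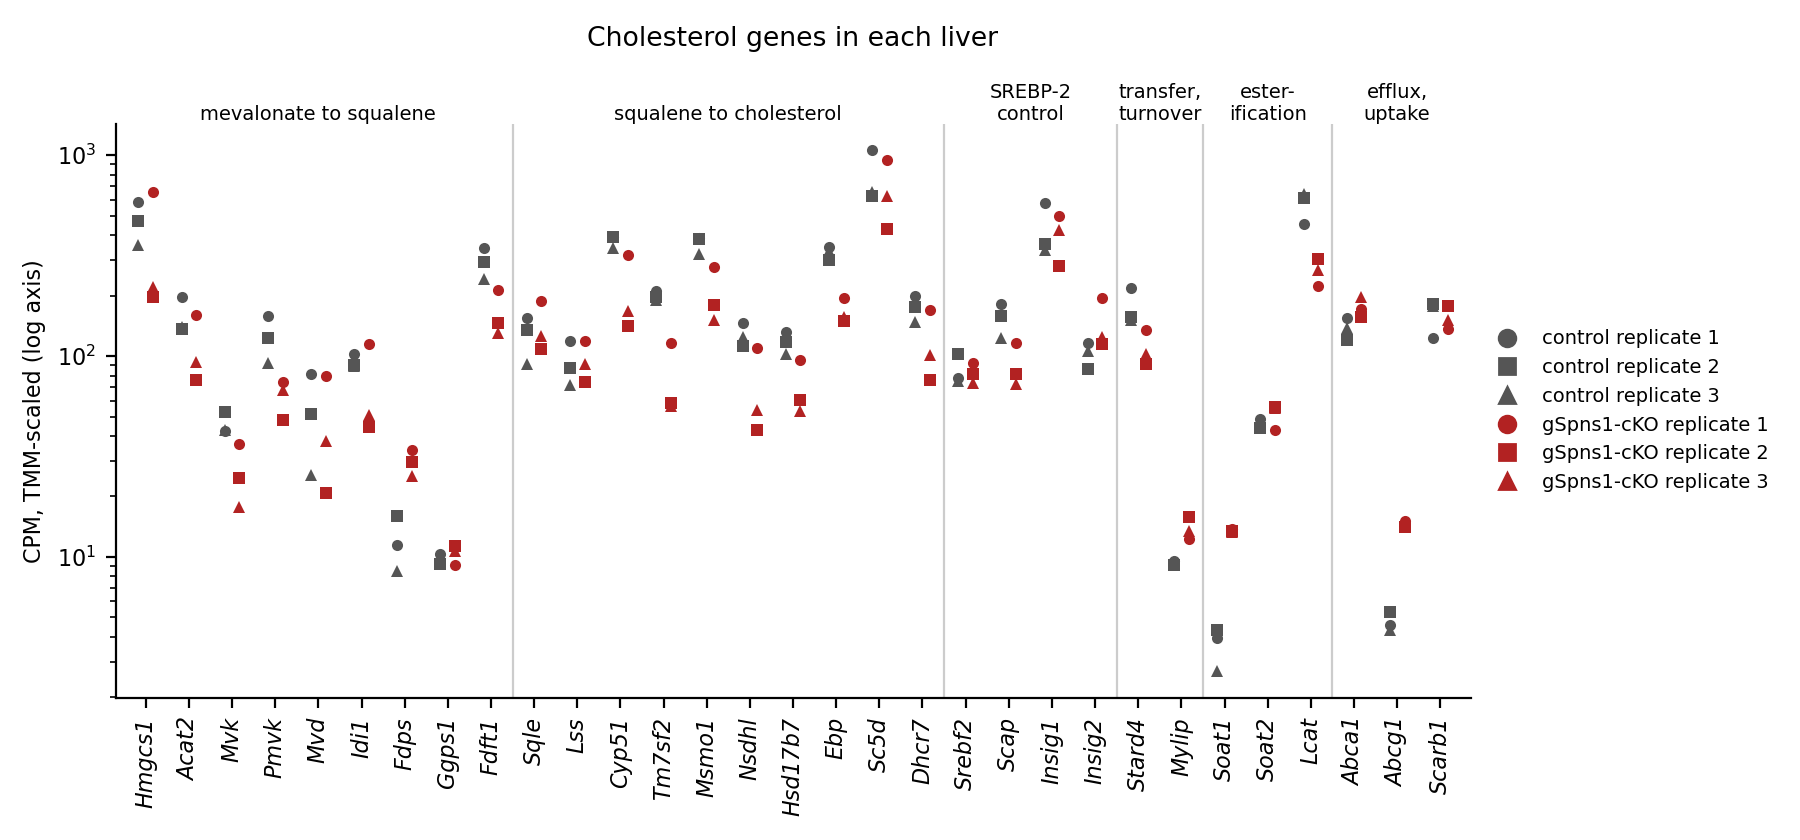
Level of each of the 31 genes in each of the 6 livers, as CPM over the TMM-scaled library size on a log axis, grouped by role from left to right. Grey symbols are control and red symbols g*Spns1*-cKO livers, and the symbol shape gives the replicate number, which was not used to pair mice. The red circles (g*Spns1*-cKO replicate 1) lie above the other red symbols in 18 of the 19 synthesis genes.

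**Figure D2:**
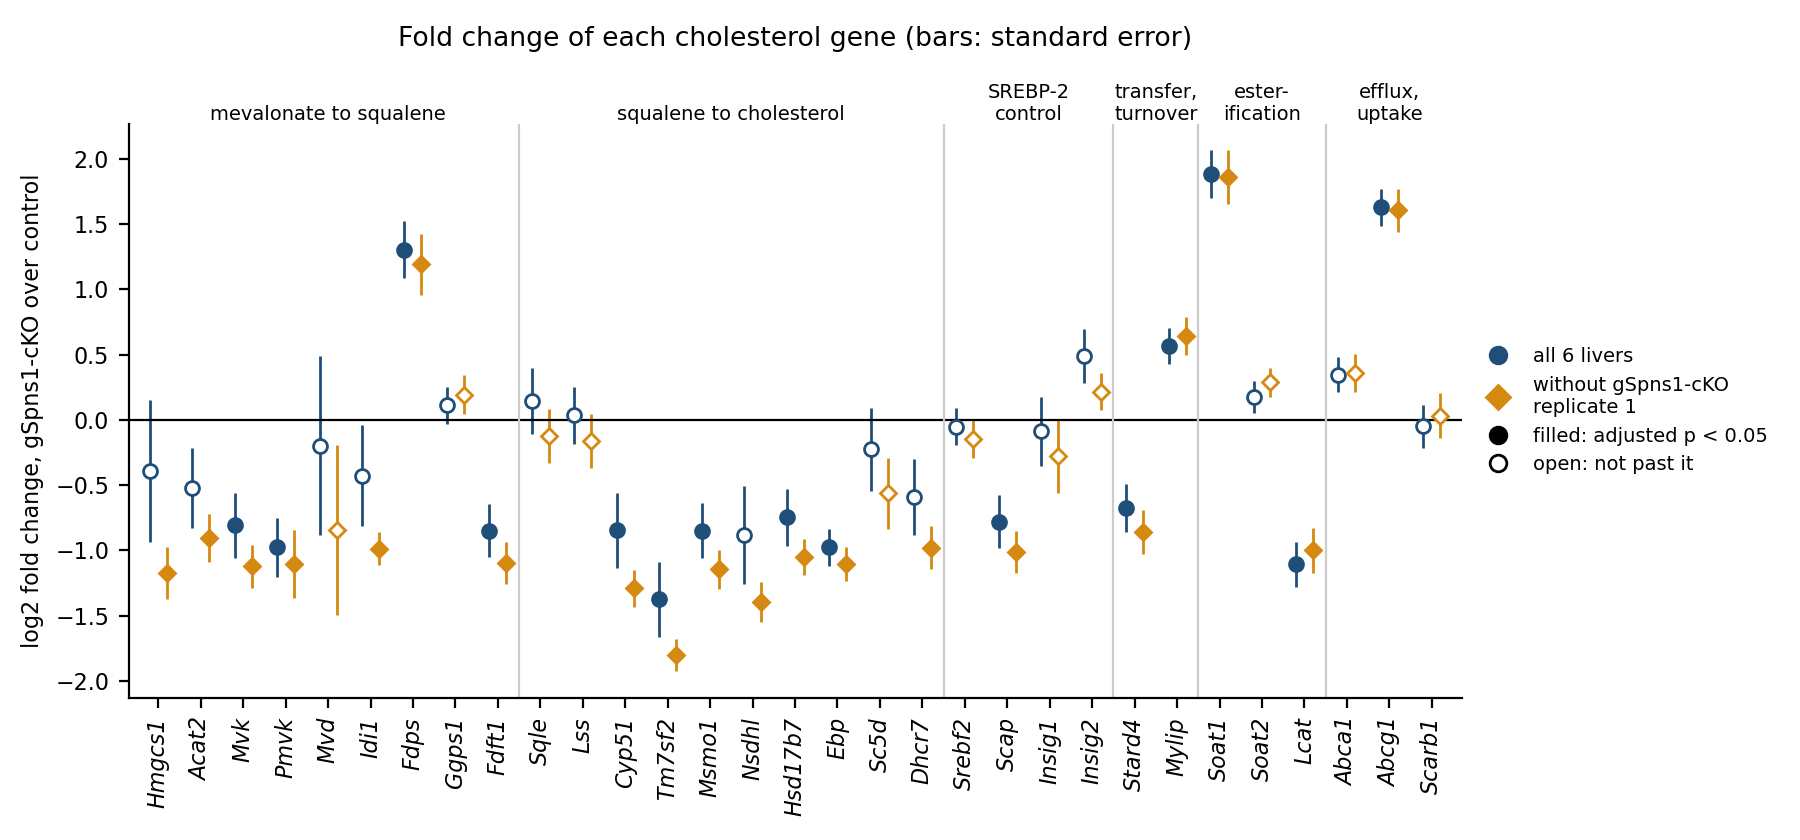
Log2 fold change of each gene, g*Spns1*-cKO over control, with its standard error from edgeR, with all 6 livers (blue circles) and without g*Spns1*-cKO replicate 1 (orange diamonds). Filled symbols passed an adjusted p of 0.05; 11 genes below the zero line are filled with all livers and 16 without g*Spns1*-cKO replicate 1.

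The synthesis genes varied more between g*Spns1*-cKO livers than most genes did, and g*Spns1*-cKO replicate 1 stood apart. It had the highest level of the 3 g*Spns1*-cKO livers in 18 of the 19 synthesis genes, the exception being *Ggps1*, whereas among all genes tested it was highest in 39.3%. Control replicate 1 was likewise the highest control in 17 of the 19, against 34.0% of all genes tested. The synthesis genes together summed to 3918 CPM in g*Spns1*-cKO replicate 1, 1915 in replicate 2 and 2241 in replicate 3, and to 4690, 3765 and 3390 CPM in control replicates 1 to 3. Relative to the mean of the controls, the median synthesis gene stood at -0.08 on the log2 scale in g*Spns1*-cKO replicate 1, at -1.06 in replicate 2 and at -0.89 in replicate 3, and at 0.19, -0.01 and -0.19 in the controls. By this median and by the sum, g*Spns1*-cKO replicate 1 was within the range of the controls, and the other 2 g*Spns1*-cKO livers were below it. Gene by gene this did not hold throughout, since for 9 of the 19 all g*Spns1*-cKO livers, replicate 1 included, were below every control. The same held for 4158 of the 15449 genes tested. The highest g*Spns1*-cKO liver exceeded the lowest by a median of 2.06-fold over the synthesis genes, 1.30-fold over the other 12 genes and 1.29-fold over all genes tested. *Spns1* was as low in g*Spns1*-cKO replicate 1 as in replicate 3. g*Spns1*-cKO replicate 1 also had the highest level of the 3 in 10 of 10 Kupffer cell markers (summed to 1197 CPM, against 841 and 873 in replicates 2 and 3). Of 10 hepatocyte markers it was the lowest of the 3 in 5 and the highest in 4. Their sum, of which *Alb* made up 37432 CPM, was 61575 CPM against 69631 and 70329, and their median relative to the controls was -0.48 on the log2 scale, against -0.22 and -0.43. The part of these markers in the result was not tested. Without g*Spns1*-cKO replicate 1, a comparison of 3 controls with 2 g*Spns1*-cKO livers, 13 of the 19 synthesis genes were lower and 1 higher, with a median log2 fold change of -1.05. All 31 genes then gave 4 higher and 16 lower. The lower calls among synthesis genes fell from 8 to 5 without control replicate 1, control replicate 2 or g*Spns1*-cKO replicate 2, and to 6 without control replicate 3 or g*Spns1*-cKO replicate 3. The share of all genes tested that passed as lower, 20.5% with all livers, fell in these settings too. It was 17.9%, 16.3% and 16% without control replicates 1 to 3, and 20.3%, 17.3% and 13.5% without g*Spns1*-cKO replicates 1 to 3.

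**Figure D3:**
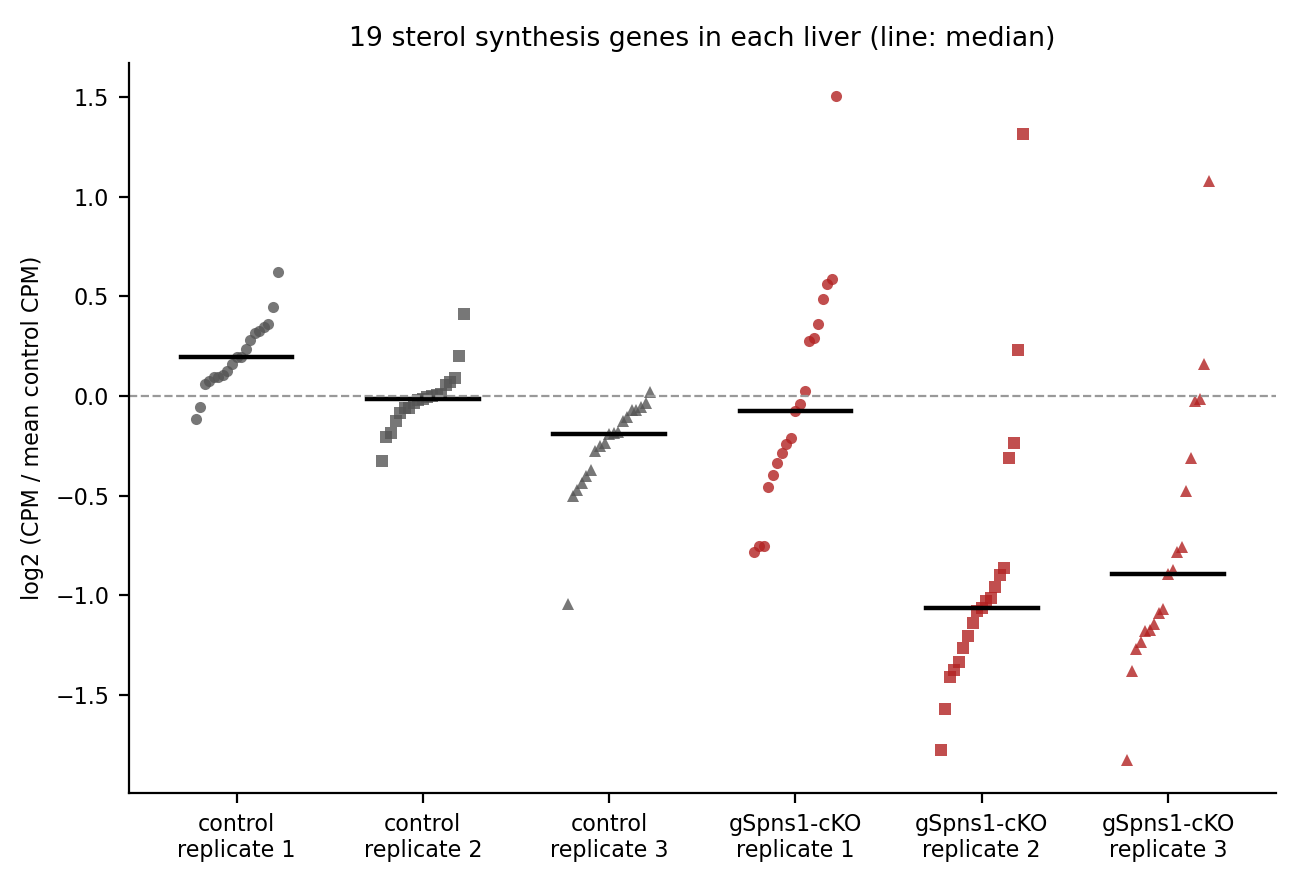
The 19 synthesis genes in each liver, each point being 1 gene as log2 of its CPM over the mean CPM of the controls, ordered by value within a liver, with the median as a bar. The medians are 0.19, -0.01 and -0.19 in control replicates 1 to 3 and -0.08, -1.06 and -0.89 in g*Spns1*-cKO replicates 1 to 3, and the isolated highest point of each g*Spns1*-cKO liver is *Fdps*.

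In the steps from acetyl-CoA to squalene, 3 of 9 genes fell (33.3%, against 20.5% of all genes tested) and 1 rose (11.1%, against 21.3%). *Pmvk*, which encodes phosphomevalonate kinase (ENSMUSG00000027952, chr3:89454541-89469013, plus strand), had 159, 123 and 92.5 CPM in the control and 74.2, 48.1 and 68.1 CPM in the g*Spns1*-cKO livers. All 3 g*Spns1*-cKO livers were below the lowest control, 1.97-fold lower on the fitted scale, with a log2 fold change of -0.98 ± 0.23 (edgeR adjusted p = 0.00976). *Mvk*, for mevalonate kinase, the step before it, had 42.3, 52.6 and 42.6 CPM in the control and 36.3, 24.6 and 17.7 CPM in the g*Spns1*-cKO livers, and its log2 fold change was -0.81 ± 0.25 (edgeR adjusted p = 0.0379). These groups were also separate, but the call for *Mvk* was lost when any control or g*Spns1*-cKO replicate 2 was left out (edgeR adjusted p between 0.0630 and 0.127). *Fdft1*, which encodes squalene synthase, the enzyme that commits the pathway to sterols, had 347, 293 and 243 CPM in the control and 214, 146 and 130.0 CPM in the g*Spns1*-cKO livers. Its log2 fold change was -0.85 ± 0.20 (edgeR adjusted p = 0.00843), and the highest g*Spns1*-cKO liver was below the lowest control. Exons of *Fdft1* overlap those of the cathepsin B gene *Ctsb* on the opposite strand over 774 bases (18.3% of its exon bases, none of them coding), and *Ctsb* had 187060 counts over the 6 libraries against 43326 for *Fdft1*. The strand setting of the counting is not given in the sources used here, so the share of *Ctsb* reads in this value is unknown.

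The other genes of these steps did not pass with all livers. *Hmgcs1*, for the synthase that makes HMG-CoA (ENSMUSG00000093930, chr13:119690379-119708260, plus strand), had 585, 469.8 and 356 CPM in control livers and 659, 196 and 222 CPM in g*Spns1*-cKO livers. Its highest value of all 6 livers was in g*Spns1*-cKO replicate 1, and the other 2 g*Spns1*-cKO livers were below every control. With all livers its log2 fold change was -0.39 ± 0.54 (edgeR adjusted p = 0.608), and without g*Spns1*-cKO replicate 1 it was -1.17 (edgeR adjusted p = 0.00131). *Idi1*, for the isomerase of isopentenyl diphosphate, had the same order of livers, with 102, 90.0 and 89.5 CPM in control and 115, 44.5 and 50.6 CPM in g*Spns1*-cKO livers, and went from -0.43 (edgeR adjusted p = 0.430) to -0.99 (0.000148) when that liver was left out. *Acat2*, which encodes the cytosolic thiolase of the first step, went from -0.52 (edgeR adjusted p = 0.215) to -0.90 (0.00354). Reads of *Acat2* and *Idi1* can be shared with relatives, since 28.9% of the 100-base stretches of *Acat2* transcripts are also in other genes, mostly *Acat3*, and 21.9% of those of *Idi1*, mostly *Gm13502*. *Mvd*, for mevalonate diphosphate decarboxylase, varied widely in both groups, with 81.1, 51.5 and 25.6 CPM in control and 79.2, 20.9 and 37.9 CPM in g*Spns1*-cKO livers, and no difference could be told from this spread (log2 fold change -0.20 ± 0.69, edgeR adjusted p = 0.844). *Ggps1*, for the branch to geranylgeranyl diphosphate that serves protein prenylation, lay between 9.12 and 11.3 CPM in all 6 livers (log2 fold change 0.11 ± 0.14, edgeR adjusted p = 0.555). It overlaps *Arid4b*, which had 4136 counts against 1992, on the opposite strand over 257 exon bases.

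*Fdps*, which encodes farnesyl diphosphate synthase at the branch between sterols and isoprenoids (ENSMUSG00000059743, chr3:89093588-89101959, minus strand), was the only synthesis gene that rose with TMM (with library size only *Ggps1* also passed, at a log2 fold change of 0.56 and an edgeR adjusted p of 0.00881). It had 11.5, 15.9 and 8.46 CPM in the control and 34.0, 29.7 and 25.3 CPM in the g*Spns1*-cKO livers, so that every g*Spns1*-cKO liver was above every control. The log2 fold change was 1.31 ± 0.22 (edgeR adjusted p = 0.00186), a 2.47-fold rise, and it passed with each liver left out in turn. The value is uncertain. In GENCODE M21, 1124 exon bases of *Fdps*, holding 85.9% of its coding bases, also belong to *Gm43738* on the same strand, which had 0 counts in all 6 libraries. How reads on such shared exons were assigned is not given in the sources used here. Per kilobase of deposited gene length, *Fdps* was at 2.84 CPM in control livers, whereas the synthesis genes other than *Fdps* and *Ggps1* ran from 8.58 (*Lss*) to 161 (*Sc5d*).

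From squalene to cholesterol, 5 of 10 genes fell (50%, against 20.5% of all genes tested) and none rose (against 21.3%) in the edgeR test. The median log2 fold change over the 10 was -0.80. *Tm7sf2*, for a sterol reductase that acts on the early products of lanosterol (ENSMUSG00000024799, chr19:6062821-6077197, minus strand), showed the largest fall of the 31 genes. It had 210.4, 198 and 190.2 CPM in the control and 116, 58.2 and 56.2 CPM in the g*Spns1*-cKO livers, which were separate by a wide margin. This was 2.60-fold lower (log2 fold change -1.38 ± 0.29, edgeR adjusted p = 0.00820). *Ebp*, for the sterol isomerase whose promoter is shown above (ENSMUSG00000031168, chrX:8185329-8193512, minus strand), had 349.6, 301 and 332 CPM in the control and 195, 149 and 156 CPM in the g*Spns1*-cKO livers. Here g*Spns1*-cKO replicate 1 lay close to the other 2, and the log2 fold change of -0.98 had the smallest standard error among the synthesis genes that fell (0.14, edgeR adjusted p = 0.000459). *Msmo1*, for the methyl oxidase that starts the removal of the methyl groups of lanosterol, had 389, 382 and 322 CPM in the control and 277, 179 and 151 CPM in the g*Spns1*-cKO livers. Its log2 fold change was -0.85 ± 0.21 (edgeR adjusted p = 0.0107). *Tm7sf2*, *Ebp* and *Msmo1* passed with each liver left out in turn. *Tm7sf2* shares 532 exon bases (12.1%) with *Vps51* on the same strand, which had 219 counts over the 6 libraries against 25437. The deposited row of *Tm7sf2* also reaches upstream of its RefSeq promoter window (chr19:6067851-6068100). Reads from beyond that transcription start can therefore be part of its count, and their share is unknown, so its value is uncertain.

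*Cyp51* and *Hsd17b7* fell with less margin. *Cyp51*, which encodes lanosterol demethylase, had 392, 391 and 345 CPM in the control and 319, 141 and 167 CPM in the g*Spns1*-cKO livers, and g*Spns1*-cKO replicate 1 was just below the lowest control. Its log2 fold change was -0.85 ± 0.29 (edgeR adjusted p = 0.0494), and the call was lost when any liver other than g*Spns1*-cKO replicate 1 was left out (adjusted p between 0.0770 and 0.136). *Hsd17b7*, for a keto-reductase that acts with *Msmo1* and *Nsdhl* on the same methyl groups, had 131, 118 and 103 CPM in the control and 96.1, 60.4 and 53.1 CPM in the g*Spns1*-cKO livers (log2 fold change -0.75 ± 0.22, edgeR adjusted p = 0.0249). This call was lost without control replicate 1 or 2 and without g*Spns1*-cKO replicate 2 or 3 (edgeR adjusted p between 0.0580 and 0.0842). *Nsdhl*, for the dehydrogenase that works with them, had 145, 112 and 124 CPM in the control and 109.8, 42.8 and 54.1 CPM in the g*Spns1*-cKO livers. All 3 g*Spns1*-cKO livers were below the controls, but it did not pass (log2 fold change -0.88 ± 0.37, edgeR adjusted p = 0.113), and without g*Spns1*-cKO replicate 1 it was -1.39 (edgeR adjusted p = 6.99e-05). *Dhcr7*, for the reductase of the last step, had 199, 175 and 148 CPM in the control and 169, 75.6 and 101 CPM in the g*Spns1*-cKO livers. Its log2 fold change went from -0.59 (edgeR adjusted p = 0.150) to -0.98 (0.00112) without that liver.

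For 3 genes of these steps the groups overlapped with and without g*Spns1*-cKO replicate 1. *Sqle*, for squalene epoxidase, a rate-limiting enzyme after HMG-CoA reductase, had 154, 135 and 91.6 CPM in the control and 187, 108 and 126 CPM in the g*Spns1*-cKO livers. *Lss*, for lanosterol synthase, had 119, 87.2 and 71.6 CPM in control and 119, 74.5 and 90.9 CPM in g*Spns1*-cKO livers. *Sc5d*, for a sterol desaturase and the most abundant synthesis gene per kilobase in both groups, had 1064, 624 and 656 CPM in control and 948, 430.5 and 630.2 CPM in g*Spns1*-cKO livers. Their log2 fold changes were 0.14, 0.03 and -0.22 with standard errors of 0.25, 0.22 and 0.32 and edgeR adjusted p = 0.686, 0.915 and 0.609. Without g*Spns1*-cKO replicate 1 they were -0.12, -0.17 and -0.56, and none passed. The synthesis genes thus did not all move alike, and differences between them were not tested.

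In the control of SREBP-2, *Scap* fell and the other 3 genes did not pass. *Scap*, for the escort protein of SREBP-2 (ENSMUSG00000032485, chr9:110333288-110384950, plus strand), had 181, 158 and 123 CPM in the control and 116, 81.0 and 72.2 CPM in the g*Spns1*-cKO livers. Every g*Spns1*-cKO liver was below every control, with a log2 fold change of -0.78 ± 0.20 (edgeR adjusted p = 0.0134), and it passed with each liver left out in turn. *Srebf2*, which encodes SREBP-2 itself, had 78.0, 103 and 75.0 CPM in the control and 92.4, 81.3 and 73.2 CPM in the g*Spns1*-cKO livers, and the groups overlapped (log2 fold change -0.05 ± 0.14, edgeR adjusted p = 0.798). *Insig1*, for the retention protein that is itself a target of SREBP-2, had 579, 359.6 and 339 CPM in the control and 498, 281 and 423 CPM in the g*Spns1*-cKO livers. The difference between the group means was smaller than the SD of either group (log2 fold change -0.09 ± 0.26, edgeR adjusted p = 0.815). *Insig2*, for the second retention protein, had 116, 85.9 and 106 CPM in control and 194, 115 and 125 CPM in g*Spns1*-cKO livers (log2 fold change 0.49 ± 0.21, edgeR adjusted p = 0.0852). Its highest value was again in g*Spns1*-cKO replicate 1. Without that liver its log2 fold change was 0.22, and it passed when g*Spns1*-cKO replicate 2 was left out (0.63, edgeR adjusted p = 0.0354). It also passed in 5 of the 8 other scalings, filters and models: upper quartile scaling (adjusted p = 0.0321), library size only (0.00400), the filter of 1 count in any library (0.00171), DESeq2 (0.0474) and the replicate block (0.0251).

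*Stard4* and *Mylip* moved in opposite directions. *Stard4*, for a soluble carrier that moves sterol between membranes and is known as a SREBP-2 target, had 217, 157 and 151 CPM in the control and 135, 91.4 and 102 CPM in the g*Spns1*-cKO livers. Its log2 fold change was -0.68 ± 0.18 (edgeR adjusted p = 0.0150), with no overlap, and did not pass without g*Spns1*-cKO replicate 3 (edgeR adjusted p = 0.0585). *Mylip* (ENSMUSG00000038175, chr13:45389742-45412022, plus strand), for the ubiquitin ligase IDOL, an LXR target that sends lipoprotein receptors to degradation, had 9.57, 9.09 and 9.40 CPM in the control and 12.3, 15.9 and 13.4 CPM in the g*Spns1*-cKO livers. The controls lay close together and all 3 g*Spns1*-cKO livers were above them, 1.48-fold higher (log2 fold change 0.57 ± 0.14, edgeR adjusted p = 0.00768).

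Esterification showed the largest rise of the 31 genes. *Soat1*, for the sterol acyltransferase found in most cells and abundant in macrophages (ENSMUSG00000026600, chr1:156424525-156474331, minus strand), had 3.95, 4.32 and 2.69 CPM in the control and 13.8, 13.4 and 13.4 CPM in the g*Spns1*-cKO livers. The 3 g*Spns1*-cKO livers were nearly equal and far above the controls, 3.69-fold higher (log2 fold change 1.88 ± 0.18, edgeR adjusted p = 5.09e-05). *Soat2*, the acyltransferase of hepatocytes and enterocytes, had 48.7, 43.7 and 43.6 CPM in the control and 42.8, 55.8 and 55.1 CPM in the g*Spns1*-cKO livers, and did not pass (log2 fold change 0.18 ± 0.12, edgeR adjusted p = 0.280). Per kilobase, *Soat1* stood at 0.373 CPM in control and 1.38 CPM in g*Spns1*-cKO livers and *Soat2* at 20.5 and 23.1 CPM, so that *Soat2* remained the more abundant transcript in both groups. *Lcat*, for the enzyme that hepatocytes secrete to esterify cholesterol in plasma lipoproteins (ENSMUSG00000035237, chr8:105939551-105943382, minus strand), had 457, 614 and 644 CPM in the control and 223, 305 and 268 CPM in the g*Spns1*-cKO livers. It was 2.16-fold lower (log2 fold change -1.11 ± 0.17, edgeR adjusted p = 0.000776). Unlike most synthesis genes, *Lcat* was lowest in g*Spns1*-cKO replicate 1, and it passed with each liver left out in turn.

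Of the efflux and uptake genes, *Abcg1* rose. *Abcg1*, for a transporter that passes cholesterol to HDL and is an LXR target (ENSMUSG00000024030, chr17:31057698-31115777, plus strand), had 4.59, 5.29 and 4.35 CPM in the control and 15.1, 14.0 and 15.0 CPM in the g*Spns1*-cKO livers. The spread within each group was small against the distance between them, 3.10-fold (log2 fold change 1.63 ± 0.14, edgeR adjusted p = 2.74e-05). *Abca1*, for the transporter that loads cholesterol onto nascent HDL and also an LXR target, had 154, 120.4 and 138 CPM in the control and 171, 157 and 196 CPM in the g*Spns1*-cKO livers. All 3 g*Spns1*-cKO livers were above the highest control, by a small margin, and *Abca1* did not pass (log2 fold change 0.35 ± 0.13, edgeR adjusted p = 0.0584), whereas it did without control replicate 1 (adjusted p = 0.0481) or g*Spns1*-cKO replicate 2 (0.0425). It also passed in 5 of the 8 other scalings, filters and models, with upper quartile scaling (adjusted p = 0.0164), library size only (0.000727), both other filters (0.0471 and 0.0373) and DESeq2 (0.0459), so that its call lies at the threshold. *Scarb1*, for the receptor SR-B1 that takes cholesterol esters from HDL, had 123, 181 and 177 CPM in the control and 137, 177 and 152 CPM in the g*Spns1*-cKO livers, which overlapped (log2 fold change -0.05 ± 0.16, edgeR adjusted p = 0.837). *Soat1*, *Abcg1* and *Mylip* passed with each liver left out in turn.

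**Figure D4:**
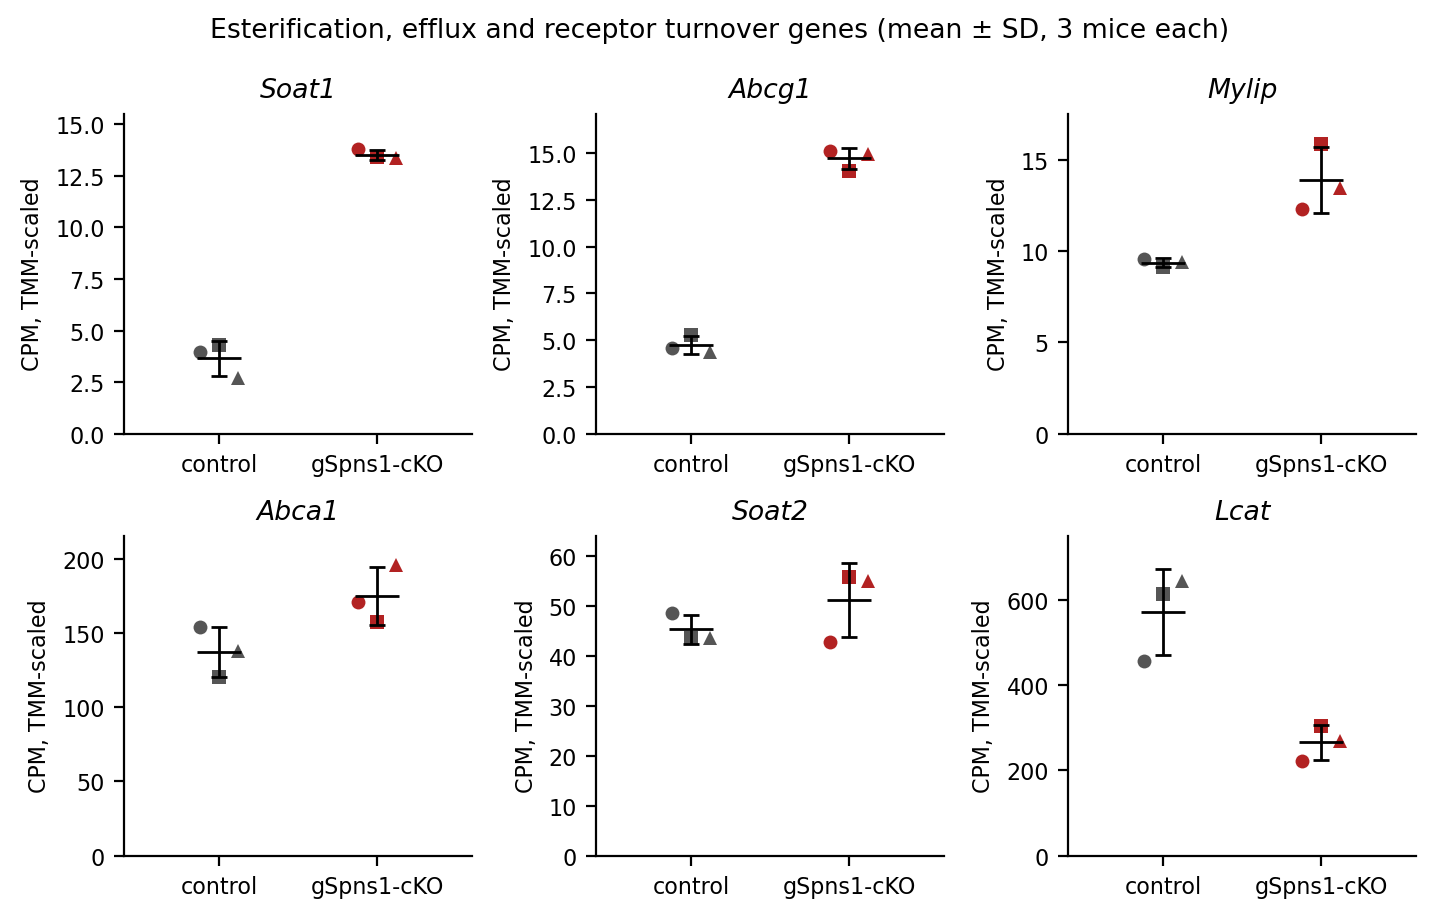
CPM over the TMM-scaled library size of 6 genes of esterification, efflux and receptor turnover in each liver (points, shape by replicate number), with mean and SD of the 3 mice of a group and every axis starting at 0. All 3 g*Spns1*-cKO livers are above all controls for *Soat1*, *Abcg1*, *Mylip* and *Abca1* and below them for *Lcat*, and the groups overlap for *Soat2*.

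Marker genes of cells other than hepatocytes moved with the groups too. The counts below stand against shares over all genes tested of 21.3% higher and 20.5% lower. All 10 Kupffer cell markers were higher in g*Spns1*-cKO livers, with sums of 247 to 396 CPM in control and 841 to 1197 CPM in g*Spns1*-cKO livers, among them *Cd5l*, *Clec4f* and *C1qa* (log2 fold changes 1.79, 1.14 and 1.15). Of 10 markers of recruited and lipid-associated macrophages 9 were higher, with sums of 64.4 to 81.3 CPM and 392 to 527 CPM, led in abundance by *Lyz2*, *Gpnmb* and *Cd9* (log2 fold changes 2.33, 6.84 and 1.64). Stellate (7 of 8 higher, 199 to 233 against 544 to 583 CPM), endothelial (5 of 8, 208 to 226 against 280.4 to 331 CPM) and cholangiocyte markers (7 of 7, 45.2 to 63.7 against 174 to 285 CPM) rose as well. Most of the cholangiocyte sum was *Spp1*, with 37.6, 40.0 and 56.2 CPM in the control and 191, 248 and 147 CPM in the g*Spns1*-cKO livers. The 10 hepatocyte markers summed to between 95761 and 110528 CPM in control and between 61575 and 70329 CPM in g*Spns1*-cKO livers, with 4 lower, *Alb* among them, and 0 higher (1 and 1 with scaling by library size only, where the median turned from -0.42 to 0.025), while *Ahsg* had a log2 fold change of -0.01 and did not pass. No marker of these lists was at 0 in all libraries. *Soat1*, *Abcg1* and *Mylip* moved in the direction of the macrophage markers and *Lcat* in that of *Alb*, and the part of cell composition in these results was not tested.

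Beyond the 31 genes, partners of the same pathway were counted from 4 lists. Of 7 tested genes of other sterol synthesis steps and redox partners, 4 fell and 0 rose, with a median log2 fold change of -0.67. Over all genes tested, 21.3% passed as higher and 20.5% as lower, the shares against which the counts of these 4 lists stand. *Pgrmc2* and *Pgrmc1*, for heme-binding membrane proteins that partner cytochrome P450 enzymes such as CYP51, had log2 fold changes of -0.95 and -0.92 (edgeR adjusted p = 0.000498 and 0.00109), and *Cyb5r3*, for the reductase that feeds electrons to the sterol oxidases, -0.76 (adjusted p = 0.0208). In the list of SREBP processing and sterol-regulated degradation 1 of 13 rose (7.69%) and 2 fell (15.4%), fewer in either direction than the shares over all genes (median -0.08, which turned to 0.05 with upper quartile scaling and 0.37 with library size only). *Rnf145*, for a ubiquitin ligase of the endoplasmic reticulum known as an LXR target that acts on SCAP, had 27.8, 27.6 and 29.1 CPM in the control and 53.0, 62.2 and 81.4 CPM in the g*Spns1*-cKO livers, a 2.33-fold rise without overlap (log2 fold change 1.22 ± 0.15, edgeR adjusted p = 0.000188). *Vcp*, which acts in the degradation of proteins from that membrane, fell by 0.60 on the log2 scale.

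In the isoprenoid branches 1 of 12 genes rose (8.33%, against 21.3% of all genes tested) and 4 fell (33.3%, against 20.5%), with a median of -0.21. The prenyltransferase subunit genes *Pggt1b* and *Rabggta* had log2 fold changes of 0.69 and -0.63, and *Pdss2*, of ubiquinone synthesis, -0.48. Of 19 genes of LXR and intracellular sterol transport, 5 rose (26.3%, near the 21.3% of all genes tested) and 8 fell (42.1%, against 20.5%), with a median of -0.27. *Vldlr*, for a lipoprotein receptor that IDOL also targets, had 0.854, 0.812 and 1.70 CPM in the control and 3.42, 15.8 and 8.95 CPM in the g*Spns1*-cKO livers, all above the controls but widely spread (log2 fold change 3.08 ± 0.66, edgeR adjusted p = 0.0130). It did not pass without control replicate 1 or control replicate 2 (edgeR adjusted p = 0.0606 and 0.0599). *Gramd1b*, for a protein that carries cholesterol from the plasma membrane to the endoplasmic reticulum, had 1.46, 1.85 and 2.02 CPM in control and 4.53, 7.90 and 4.30 CPM in g*Spns1*-cKO livers (log2 fold change 1.65 ± 0.28, edgeR adjusted p = 0.00126). *Lrpap1*, for a chaperone of lipoprotein receptors, fell by 0.87 (edgeR adjusted p = 0.000119). With scaling by library size only, the medians of the last 3 lists turned positive (0.37, 0.24 and 0.18), and that of all genes moved to 0.46, so that only distances from that median can be read from them.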

How the data were processed

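RNA of 6 mouse livers, 3 g*Spns1*-cKO and 3 control, was sequenced as poly-A libraries by a commercial service (Novogene), 1 library per mouse, and mice were grouped by the genotype in their labels. The authors deposited 1 table of raw counts, whole numbers with no normalization, with a column for every liver. The submitters' processing notes name fastp, HISAT2 2.0.5, featureCounts 1.5.0-p3 and mm10, and the strand setting is not given in the sources used here. FPKM values, which the authors made from these counts with gene length and library total, and the authors' own group means, fold changes and p-values were deposited beside the counts and used for no result. The deposited gene length gave CPM per kilobase.

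Counts were tested in R 4.3.3 with edgeR 4.0.16: filterByExpr, TMM, the robust quasi-likelihood test without covariates, and Benjamini-Hochberg adjustment over the 15449 genes kept (threshold 0.05). Standard errors are the log2 fold change divided by the square root of F. The exact permutation test on CPM was two-sided. Members and lists were chosen with earlier results of these data known, and *Faxdc2*, a listed partner, was not analysed here. All 31 genes are named by role, with the 3 most changed genes of each other pathway list that passed and the 3 most abundant of each marker list, except for 2 genes of these lists that are not reported here. Gene positions are those of the deposited table, and 30 of the 32 genes (*Spns1* included) have the same ones in GENCODE M21, which gave exon overlaps and transcripts. Alternatives were scaling by library size only, upper quartile and RLE, DESeq2 1.42.0, limma-voom (limma 3.58.1), 2 filters on low counts, a threshold of 0.01, a replicate block and leaving out each liver. Over all genes tested, same-numbered mice did not deviate together (correlations 0.047, 0.033 and -0.022), and the main test did not pair them. Replicate 1 was, however, the highest control in 17 and the highest g*Spns1*-cKO liver in 18 of the 19 synthesis genes. Correlations over all genes can miss a pattern of few genes, so they cannot decide whether same-numbered mice share a litter or batch. This was not tested. No 2 libraries of a group were alike within sampling noise, and at this depth 3 counts correspond to 0.0763 to 0.119 CPM, which covers counting error only. The edgeR script was tested on simulated data.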

Additional observations from a re-analysis of the deposited data

How the results depend on the processing

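Scaling had the largest effect on direction. With library size only, 7289 genes were higher and 970 lower in place of 3286 and 3166, the median of all genes moved from 0.014 to 0.46, and the median of the 31 genes reversed to 0.045, with 9 genes higher and 3 lower. The distance of the 31 genes from the median of all genes stayed at -0.41 (-0.40 with TMM), and that of the synthesis genes at -0.61. Of genes that had not passed, *Hmgcs1* (0.045), *Mvd* (0.23), *Idi1* (0.014), *Sc5d* (0.22), *Srebf2* (0.39, edgeR adjusted p = 0.0475), *Insig1* (0.35) and *Scarb1* (0.40) reversed under it, and *Srebf2* (0.076), *Insig1* (0.035) and *Scarb1* (0.086) under upper quartile scaling, which gave 4111 genes higher and 2240 lower. None of the 15 genes that passed reversed under any alternative, but 8 of the 11 lower ones did not pass with library size only, and *Mvk* and *Cyp51* not with upper quartile scaling. *Spns1* itself did not pass with library size only (-0.43, edgeR adjusted p = 0.213) or upper quartile scaling (-0.74, 0.0635). With RLE, DESeq2, limma-voom and both other filters, between 4 and 6 of the 31 genes were higher and between 10 and 12 lower. The replicate block gave 6100 genes in all, with 5 of the 31 as higher and 14 as lower. A threshold of 0.01 left 3890 genes, with 4 of the 31 higher and 5 lower. Leaving out 1 liver at a time, the 31 genes had a median that ran from -0.86 (without g*Spns1*-cKO replicate 1) to -0.15 (without g*Spns1*-cKO replicate 2), and 7 genes that did not pass with any liver left out changed sign: *Mvd* (-0.85 to 0.23), *Sc5d* (-0.56 to 0.049), *Insig1* (-0.28 to 0.18), *Lss* (-0.17 to 0.24), *Srebf2* (-0.15 to 0.098), *Scarb1* (-0.22 to 0.043) and *Sqle* (-0.12 to 0.30). Except where named, causes of these shifts were not tested. The fewest counts of any of the 31 genes in a library were 68 (*Soat1*, control replicate 3).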
